A study of Mus musculus with 4 samples.

Results

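Enteroendocrine cells are the hormone-secreting cells scattered through the intestinal epithelium, and the transcripts of 7 of their peptide hormones, 2 granins and the transcription factor Isl1 were followed in crypts of the mouse jejunum with and without Yy1. The members were 10 genes of 18193 named on the array: the granins Chga and Chgb, the hormone genes Cck, Ghrl, Nts, Sct, Gip, Gcg and Sst, and Isl1. Every probe set (the set of short DNA probes that together give 1 value for a transcript) whose annotation named 1 of these genes and no other was taken, which gave 11 probe sets, 1 per gene and 2 for Isl1. All 10 genes were measured and none was lost to a filter.

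The knockout group (2 arrays) came from mice labelled YY1f/f; Vil-Cre-ERT2, in which the Villin promoter of the intestinal epithelium drives a tamoxifen-activated Cre recombinase, and the other group (2 arrays) from mice labelled control. Both groups have the strain label C57BL/6J enriched, and 1 protocol sentence naming 4 days of tamoxifen covers both. The labels give no genotype for the control mice, and their wording does not settle whether these mice received tamoxifen, so effects of Cre or of tamoxifen cannot be told apart from those of the lost gene. The age of the mice and whether RNA of several mice was pooled are not given in the sources used here. Whole crypts were taken after EDTA and a filter, with no sort for hormone cells. In such bulk RNA fewer cells of a type and less RNA per cell cannot be told apart, and this holds for every result that follows.

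Enteroendocrine cells arise from crypt stem cells when the transcription factor Neurog3 is switched on for a short time, and NeuroD1, Isl1 and other factors then direct the choice of hormones. The hormones are made as longer precursors, cut by prohormone convertases and stored in dense granules, whose matrix is built by acidic proteins called granins. The set of hormones in a cell shifts as it leaves the crypt for the villus, where Sct and Nts transcripts are known to be more abundant.

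The start regions of these genes are shown because YY1 is a DNA-binding factor whose best known core motif is CCATNTT. For all 10 genes RefSeq start sites were matched, with 13 windows of 250 bases before the start in GRCm38.p6, 4 of them for Ghrl, and 3 motifs were searched on both strands. Capitals below mark matches to any of them, and all sequences run 5′ to 3′ on the strand of the gene. The 4 hormone genes whose transcripts differed between the groups have these windows, with the start farthest upstream for Ghrl.

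Cck, chr9:121495695-121495944, minus strand: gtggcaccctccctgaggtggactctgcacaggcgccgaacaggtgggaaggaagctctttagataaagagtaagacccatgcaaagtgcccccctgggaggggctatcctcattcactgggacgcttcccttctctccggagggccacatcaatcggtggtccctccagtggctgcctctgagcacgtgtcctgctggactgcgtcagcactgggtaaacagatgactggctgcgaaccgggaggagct
Ghrl, chr6:113719912-113720161, minus strand: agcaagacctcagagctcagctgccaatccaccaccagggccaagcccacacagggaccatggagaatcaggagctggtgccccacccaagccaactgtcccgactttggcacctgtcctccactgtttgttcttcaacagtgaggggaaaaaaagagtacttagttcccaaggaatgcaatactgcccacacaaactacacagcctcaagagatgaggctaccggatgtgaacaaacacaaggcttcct
Nts, chr10:102490419-102490668, minus strand: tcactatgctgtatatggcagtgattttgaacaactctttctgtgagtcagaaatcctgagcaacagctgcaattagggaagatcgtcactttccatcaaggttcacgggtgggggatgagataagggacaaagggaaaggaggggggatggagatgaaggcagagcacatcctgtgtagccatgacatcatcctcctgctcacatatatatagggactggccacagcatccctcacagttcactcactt
Sct, chr7:141279134-141279383, minus strand: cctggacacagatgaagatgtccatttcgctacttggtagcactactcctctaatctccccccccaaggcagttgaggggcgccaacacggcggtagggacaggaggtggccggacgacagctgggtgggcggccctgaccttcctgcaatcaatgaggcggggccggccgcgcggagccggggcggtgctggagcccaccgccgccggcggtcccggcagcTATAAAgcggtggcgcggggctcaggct

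Of these 4 windows only that of Sct held a match, the TATA box letters TATAAA at 28 to 23 bases before the start. TATAAA was found in 12.4% of the 32851 windows of all genes, and Gcg was the other member with it. The YY1 core CCATNTT was found in 12.4% of all windows. Among the members it was found in 3 of the 4 Ghrl windows, 2 of which overlap and share their matches, and in none of the 9 windows of the other genes. These 3 windows lie downstream of the Ghrl start shown above. Their matches with 10 bases on each side are given here.

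Ghrl, chr6:113719573-113719599, minus strand: ccacccttgaAAGATGGtgacaagaga
Ghrl, chr6:113719483-113719509, minus strand: taaggcacatAACATGGagatgaagta
Ghrl, chr6:113717720-113717746, minus strand: gggcacttttCCATGTTgtgtaagaac

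The cAMP response element TGACGTCA, a site through which cyclic AMP signals act on neuroendocrine genes, stood in 1.55% of all windows and in those of Chgb and Sst. It lay 72 to 65 bases before the Chgb start and 48 to 41 bases before that of Sst, a gene in which this element is well known. Only the exact letters were searched, so near forms, such as TGACGTAA in the Chga window, were not counted. No overlap between matches to different motifs occurred in the members. A match describes the letters and not binding, and binding was not measured here.

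Chgb, chr2:132781560-132781587, plus strand: ggctgctccgTGACGTCAgggctgagcg
Sst, chr16:23890875-23890902, minus strand: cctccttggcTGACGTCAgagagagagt

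Values are linear intensities as deposited. Each group has n = 2 arrays, with errors of means as SD and of log2 differences as SE, and differences are those of log2(intensity + 16), knockout less control. A probe set was called at an adjusted p under 0.05 by limma, adjusted over all 45037 probe sets. Fold changes are on the same log2 scale and understate the change of dim genes. Probe sets differ in how brightly they report, so levels were compared between groups and never between genes. All 4 probe sets of Yy1 were called lower in the knockout, the brightest at 1648 and 1681 in the control arrays and 69.4 and 68.1 in the knockout arrays (log2 difference -4.31 ± 0.10, adjusted p = 1.56e-05). The median of 27 Bacillus control probe sets, chosen as a measure of background because they were dim, lay between 31.9 and 35.6 per array, below every value of the 11 member probe sets. Gapdh control probe sets, whose 3′ minus 5′ log2 difference rises as RNA breaks down, gave 1.44 and 1.40 in control and 1.71 and 1.65 in knockout arrays (exact permutation p = 0.33, two-sided, the smallest that 2 against 2 arrays can give). Actb gave 0.28 and 0.24 against 0.33 and 0.29, with the same p. The part of RNA quality in the results was not tested.

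The hormone genes did not move as a group: Ghrl and Cck were higher in the knockout, Nts, Sct and Isl1 were lower, and the 2 granins showed no detectable difference. Of the 10 genes, each by its brightest probe set, 2 were called higher, 3 lower and 5 were not called. By the same rule 12.6% of 18193 genes were called higher and 10.4% lower, and over all probe sets 10.9% and 9.09%. The share of rises is near the background, and that of falls is above it but rests on 3 genes. The median log2 difference was -0.02 over the members and 0.01 over all genes. Both knockout arrays lay above both controls for 3 members and below them for 4, where 32.7% and 29.3% of all genes did so.

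**Figure D1:**
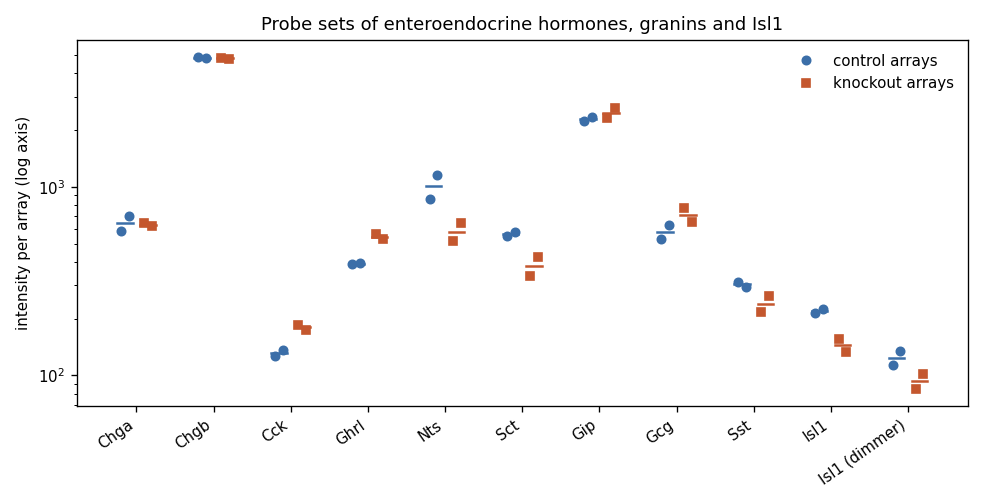
Intensity on each array (vertical log axis) for the 11 probe sets of hormone genes, granins and Isl1, with controls as blue circles, knockouts as red squares and horizontal lines for group means. Knockout arrays lie above controls for Cck, Ghrl and Gcg and below them for Nts, Sct, Sst and both Isl1 probe sets, and the arrays of Chga, Chgb and Gip interleave.

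The granins, which pack hormones into granules and serve as markers of the whole enteroendocrine lineage, were level between the groups. Chgb, the brighter signal, was at 4872 and 4781 in control arrays and at 4805 and 4752 in knockout arrays. The 4 arrays lay within a narrow band and the groups overlapped. The log2 difference was -0.01 ± 0.10 (adjusted p = 0.943), with a 95% interval from -0.24 to 0.21, or 0.846-fold to 1.16-fold. Chga was at 584 and 700 in control arrays and at 642 and 617 in knockout arrays. Both knockout values fell between the controls (-0.02 ± 0.12, adjusted p = 0.925), and the interval ran from 0.812-fold to 1.19-fold. A change of either granin larger than these bounds is outside the intervals, while smaller changes were not detectable with 2 arrays a group. The sign of these small differences was not stable. Leaving out control replicate 2 (0.106) or knockout replicate 2 (0.006) turned that of Chga, and quantile normalization (0.021) that of Chgb.

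Ghrl encodes ghrelin, the hormone of X cells that stimulates appetite and growth hormone release. It was at 388 and 395 in control arrays and at 562 and 527 in knockout arrays. The controls nearly coincided and both knockout arrays were above them. The means were 392 ± 4.45 and 544 ± 25.0, a rise of 1.37-fold (log2 0.46 ± 0.10, 95% interval 0.23 to 0.69, adjusted p = 0.0181). Cck encodes cholecystokinin, released by I cells after fat and protein to contract the gallbladder and signal satiety. It was at 127 and 137 in control arrays and at 186 and 175 in knockout arrays, with no overlap. The means were 132 ± 7.54 and 180.0 ± 7.79, a rise of 1.33-fold (log2 0.41 ± 0.10, 95% interval 0.17 to 0.65, adjusted p = 0.0301).

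Gcg encodes proglucagon, from which L cells make the incretin GLP-1 and the growth factor GLP-2. It was at 526 and 624 in control arrays and at 775 and 648 in knockout arrays. Knockout replicate 2 stood just above control replicate 2, so the groups did not overlap but were close. The difference was not called (log2 0.30 ± 0.13, 95% interval -0.01 to 0.61, adjusted p = 0.170). Gip encodes the other incretin, glucose-dependent insulinotropic polypeptide of K cells. It was at 2227 and 2333 in control arrays and at 2301 and 2604 in knockout arrays. The groups overlapped (log2 0.10 ± 0.11, 95% interval -0.15 to 0.36, adjusted p = 0.582), which bounds a change between 0.90-fold and 1.28-fold.

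Nts encodes neurotensin of N cells, which acts on gut motility and fat uptake, and it showed the largest difference among the members. It was at 860 and 1154 in control arrays and at 513 and 643 in knockout arrays. The controls themselves were widely spaced, and both knockout arrays were below the lower control. The means were 1007 ± 208 and 578 ± 91.3, a fall of 1.71-fold (log2 -0.78 ± 0.17, 95% interval -1.17 to -0.39, adjusted p = 0.0175). Sct encodes secretin, the hormone of S cells that stimulates bicarbonate release from the pancreas. It was at 551 and 576 in control arrays and at 336 and 424 in knockout arrays. The groups were well apart, and knockout replicate 1 was the lowest. The means were 564 ± 18.1 and 380 ± 62.4, a fall of 1.47-fold (log2 -0.56 ± 0.13, 95% interval -0.86 to -0.26, adjusted p = 0.0225).

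Sst encodes somatostatin of D cells, an inhibitor of the release of many other gut hormones. It was at 313 and 295 in control arrays and at 218 and 263 in knockout arrays. Both knockout arrays were lower, but the difference was not called (log2 -0.32 ± 0.12, unadjusted 95% interval -0.60 to -0.04, adjusted p = 0.104). Isl1 encodes a LIM homeodomain transcription factor of several hormone cell types. Its brighter probe set was at 214 and 224 in control arrays and at 156 and 133 in knockout arrays, with no overlap. The means were 219 ± 7.16 and 144 ± 15.9, a fall of 1.47-fold (log2 -0.55 ± 0.11, 95% interval -0.82 to -0.29, adjusted p = 0.0135). Its dimmer probe set was at 113 and 134 in control arrays and at 84.5 and 102 in knockout arrays. It pointed the same way with no overlap but was not called (log2 -0.36 ± 0.13, adjusted p = 0.0955).

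**Figure D2:**
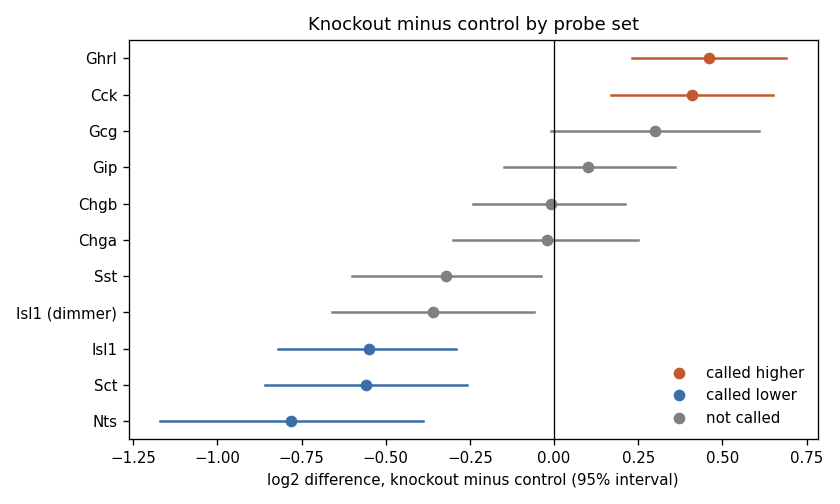
Log2 difference (knockout minus control, horizontal axis) with its 95% interval for each of the 11 probe sets, ordered by size, from 2 arrays per group. Ghrl (0.46) and Cck (0.41) were called higher in red, Nts (-0.78), Sct (-0.56) and the brighter Isl1 probe set (-0.55) lower in blue, and the grey probe sets were not called.

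None of the 5 calls held in every fit with 1 array left out. With 1 array left out, limma on the remaining 3 called 0 members higher and 1 lower (Nts) without control replicate 1, and 0 and 0 without control replicate 2. Without knockout replicate 1 it called 0 and 1 (Isl1), and without knockout replicate 2 it called 1 higher (Ghrl) and 4 lower (Nts, Sct, Isl1 and Sst). Calls over all probe sets also became fewer, from 4921 higher and 4092 lower to 2056 and 1995 without control replicate 2. The direction of the 5 called genes was the same in each of these fits. This was fixed beforehand, since both knockout arrays lay beyond both controls for each of them. The size of the Nts fall ranged from -0.987 without control replicate 1 to -0.569 without control replicate 2, and that of Sct from -0.721 without knockout replicate 2 to -0.398 without knockout replicate 1. Cck ranged from 0.357 to 0.461 and Ghrl from 0.413 to 0.504. Of the 5 called genes, 4 lay farther from the control mean in knockout replicate 1 than in knockout replicate 2. Isl1 lay farther in knockout replicate 2 by its brighter probe set, and in knockout replicate 1 by its dimmer one (-0.47 against -0.24).

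**Figure D3:**
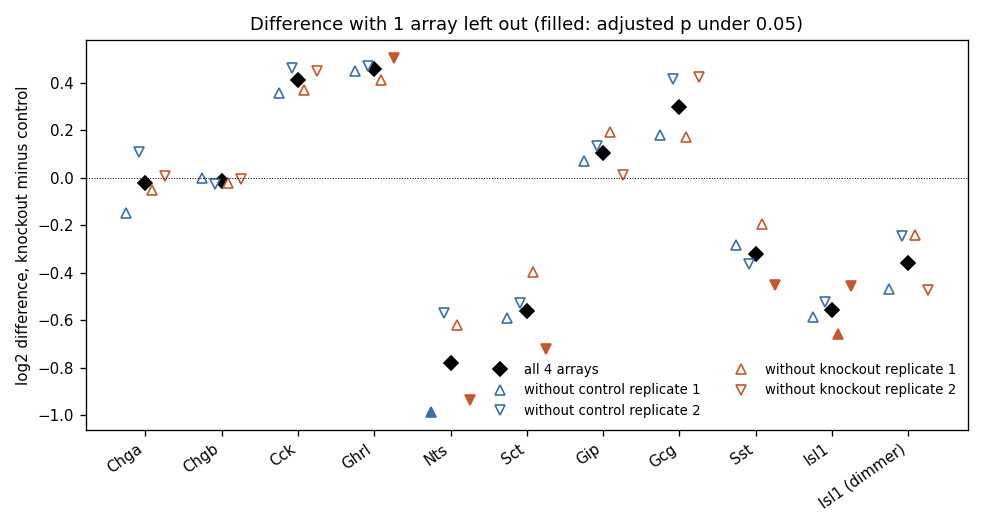
Log2 difference (vertical axis) of the 11 probe sets with all 4 arrays as black diamonds and with 1 array left out as triangles, filled where the adjusted p was under 0.05. Called members keep their side of 0, which is fixed where both knockout arrays lie beyond both controls. Chga crosses 0, and no Cck triangle is filled.

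Markers of several other cell types, though not of all, differed between the groups and are given beside these results. For scale, 10.4% of all genes were called lower and 12.6% higher. Both knockout arrays lay below both controls for 29.3% of all genes and above them for 32.7%. Of 13 measured enterocyte markers 8 were called lower and 0 higher, and their summed intensity was 94577 and 94458 in control arrays and 48645 and 70349 in knockout arrays. Relative to the control mean, their mean log2 level was -1.72 in knockout replicate 1 and -1.03 in knockout replicate 2. Knockout replicate 1, with the lower enterocyte markers, also had the lower Nts, Sct and Sst and the higher Cck, Ghrl and Gcg of the knockout pair. The brighter Isl1 probe set was instead lower, and Gip higher, in knockout replicate 2. The dimmer Isl1 probe set was lower in knockout replicate 1 (84.5) than in knockout replicate 2 (102), so the 2 probe sets of Isl1 differed in this. Of 9 general epithelial markers both knockout arrays lay below both controls for 6 and above them for 2, with a median of -0.13. Cdx2, an intestinal homeobox factor, was called lower (-0.39 ± 0.10), while Vil1 (-0.53 ± 0.15, adjusted p = 0.0511) and Krt20 (-0.50 ± 0.20, adjusted p = 0.125), which are higher in mature cells, were not called. Of 6 stem cell markers 1 was called lower, Olfm4 (5463 and 5279 in control, 3662 and 3332 in knockout arrays, -0.62 ± 0.10, adjusted p = 0.00706). The knockout arrays lay below the controls for 4 of these 6, with a median log2 difference of -0.11. Their summed intensity, in which Olfm4 weighs most, was 10675 and 10542 in control and 8784 and 8037 in knockout arrays. The stem markers other than Olfm4 had log2 differences between -0.15 and 0.03 and were not called. Of the other secretory lineages, 4 of 7 tuft markers and 2 of 8 goblet markers were called lower, and 2 of 7 Paneth markers higher. The Paneth markers did not all go 1 way, with both knockout arrays above both controls for 4 and below them for 2. Their summed intensity overlapped, at 40028 and 42746 in control and 41260 and 43652 in knockout arrays. For the goblet markers both knockout arrays lay below both controls for 7 and above them for 1, Agr2. The part of these markers in the hormone results was not tested.

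Enteric neurons also make Cck, Nts, Sst, Chga and Chgb. Of 12 measured markers of enteric neurons and glia 0 were called by limma, with 1 (Chat) at an unadjusted p under 0.05. Their summed intensity was 1174 and 1155 in control arrays and 1096 and 1146 in knockout arrays. Vip, an abundant peptide of enteric neurons, was at 8.66 to 17.4 over the 4 arrays, below the background measure, and 5 of the 12 markers stayed under 2 times the highest Bacillus median on every array. Of 10 mesenchymal markers 1 was called lower and 0 higher, of 9 immune markers 2 and 0, and of 5 endothelial markers 0 and 0. The shares over all genes were 10.4% lower and 12.6% higher.

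Other genes tied to gut hormones, not all of them genes of the hormone cell, were taken from 8 lists. In these lists 92 of 104 genes had a probe set of their own. Of these 92 genes 3 were called higher and 11 lower, against 12.6% and 10.4% of all genes, and 78 were not called. Their median log2 difference was -0.03. The lower calls of the 92 were thus near the background share, and the higher ones below it. Of the 11 lower calls, 4 were peptide-degrading enzymes found on enterocytes, and 1, Slc5a1, is on the enterocyte marker list. The pooled counts are therefore not those of hormone cells alone.

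Among 11 other hormone genes, Nucb2, the precursor of the satiety peptide nesfatin-1, rose from 896 and 1003 to 1443 and 1291 (log2 0.52 ± 0.11, adjusted p = 0.0184). It is made by many cell types, and none of the 11 was called lower. Of all genes 12.6% were called higher and 10.4% lower. Pyy, peptide YY of L cells, was at 389 and 510 in control and 363 and 380 in knockout arrays (-0.25 ± 0.14, adjusted p = 0.263). Tac1, the substance P precursor of enterochromaffin cells, was at 520 and 585 and at 694 and 569 (0.18 ± 0.13, adjusted p = 0.389). Both knockout arrays lay below the controls for Pyy, and the groups overlapped for Tac1. A dimmer Tac1 probe set had the opposite sign, at 81.0 and 109 in control and 69.7 and 52.8 in knockout arrays, and was not called (-0.52 ± 0.16, adjusted p = 0.0590).

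Among 6 genes of serotonin synthesis and storage, the work of enterochromaffin cells, 2 fell. Over all genes 10.4% were called lower. Slc18a1, the vesicular monoamine transporter VMAT1, fell from 583 and 518 to 353 and 383 (-0.56 ± 0.11, adjusted p = 0.0126), though neither of its 2 other probe sets was called. Ddc, the decarboxylase that makes serotonin and is also present in other epithelial cells, fell from 1325 and 1313 to 901 and 1028 (-0.45 ± 0.11, adjusted p = 0.0265), and its other probe set was not called. Tph1, the rate-limiting hydroxylase of gut serotonin, was at 186 and 208 in control and 204 and 227 in knockout arrays (0.12 ± 0.11, adjusted p = 0.505). The groups overlapped for Tph1, and whether its difference was unlike those of Slc18a1 and Ddc was not tested.

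Transcription factors of the lineage gave 1 call in 18, a lower one, where 10.4% of all genes were called lower and 12.6% higher. Mnx1, a homeobox factor, fell from 61.3 and 55.0 to 37.5 and 26.9 (-0.63 ± 0.13, adjusted p = 0.0157), with knockout values at the background measure, so that the size of its fall is uncertain. Neurog3, the factor that starts the lineage, was at 97.9 and 108 in control and 91.6 and 88.3 in knockout arrays (-0.17 ± 0.10, adjusted p = 0.318). Neurod1, which acts after it, was at 94.0 and 105 and at 97.1 and 93.8 (-0.05 ± 0.10, adjusted p = 0.792). No change of either was detectable at these dim levels.

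None of the 10 genes of prohormone processing was called, where 12.6% of all genes were called higher and 10.4% lower. For 1 of the 10 the unadjusted limma p was under 0.05. Pcsk1, the convertase that cuts precursors in gut hormone cells, was at 198 and 174 in control and 150 and 163 in knockout arrays (-0.23 ± 0.11, adjusted p = 0.204). Cpe, the carboxypeptidase that trims the cut peptides, was at 388 and 453 and at 383 and 407 (-0.08 ± 0.11, adjusted p = 0.677). Pam, which adds the terminal amide that Cck, secretin and other peptides need, was at 667 and 781 and at 622 and 498 (-0.37 ± 0.14, adjusted p = 0.113). It was the gene with the unadjusted p under 0.05. Sec11c, a subunit of signal peptidase, was at 3454 and 3421 and at 3293 and 3100 (-0.10 ± 0.10, adjusted p = 0.529).

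Of 18 genes of the secretory granule and exocytosis, 2 fell, a share near the 10.4% of all genes called lower. Vamp2, a SNARE protein of secretory vesicles that is expressed well beyond hormone cells, fell from 423 and 390 to 182 and 281 (-0.80 ± 0.18, adjusted p = 0.0218), and its other probe set was also called lower. Syt7, a calcium sensor of exocytosis, fell from 566 and 580 to 347 and 403 (-0.59 ± 0.11, adjusted p = 0.0104). Of its 3 other probe sets 1 was also called lower and 1 gave a difference of 0.00. The remaining 16 genes were not called by their brightest probe set. For 1 of them, Rims2, a scaffold of exocytosis sites, the brightest probe set overlapped between the groups (0.13 ± 0.14) and a dimmer one was called lower, from 67.8 and 69.1 to 37.2 and 48.6 (-0.53 ± 0.12, adjusted p = 0.0222). The knockout arrays lay below the controls with 4 of its 5 probe sets, but most of these were dim. Those at 28.5 and 26.9 against 18.3 and 20.9, and at 14.0 and 16.7 against 11.9 and 12.0, lay below the background measure. The knockout values of another, 27.5 and 31.9, did so too.

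Of 9 measured nutrient sensors 1 rose and 1 fell, where 12.6% of all genes were called higher and 10.4% lower. Ffar4, a receptor for long-chain fatty acids on hormone cells, rose from 70.2 and 76.0 to 99.2 and 111 (0.44 ± 0.11, adjusted p = 0.0257). Slc5a1, the sodium/glucose cotransporter that also serves as the glucose sensor of K and L cells, fell from 10123 and 9921 to 5774 and 7549 (-0.60 ± 0.14, adjusted p = 0.0230). It is abundant in enterocytes and is also on the enterocyte marker list above. Of 15 hormone receptors 1 was called lower and 0 higher, against the same shares of all genes. Sort1, a sorting receptor that binds neurotensin and is also called Ntsr3, fell from 1435 and 1545 to 1043 and 1129 (-0.45 ± 0.10, adjusted p = 0.0229), and its 2 other probe sets were also called lower. Of these 15 receptors 5 stayed under 2 times the highest Bacillus median on every array, among them Cckar and Glp1r.

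All 5 measured enzymes that break down gut peptides differed between the groups, where 10.4% of all genes were called lower and 12.6% higher. They are brush border or cell surface proteins of enterocytes, apart from Ide, and Anpep is also on the enterocyte marker list. Mme, neprilysin, fell from 2983 and 2612 to 366 and 916 (-2.23 ± 0.35, adjusted p = 0.00576), and Dpp4, the dipeptidyl peptidase that inactivates GLP-1 and GIP, fell from 5324 and 5439 to 1674 and 2817 (-1.30 ± 0.22, adjusted p = 0.00695). Ace, which cleaves angiotensin and other peptides, fell from 2273 and 2350 to 598 and 1148 (-1.46 ± 0.26, adjusted p = 0.00879), and Anpep, aminopeptidase N, from 9047 and 8767 to 3322 and 5607 (-1.04 ± 0.22, adjusted p = 0.0161). In each of these 4 genes knockout replicate 1 was the lowest array, and the other probe sets of Mme, Dpp4 and Ace were also called lower. Ide, the insulin-degrading enzyme, rose from 871 and 828 to 1341 and 1315 (0.64 ± 0.10, adjusted p = 0.00542), with 2 of its 4 other probe sets called the same way. Gcg and Gip, whose incretin products Dpp4 cleaves, were not called.

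**Figure D4:**
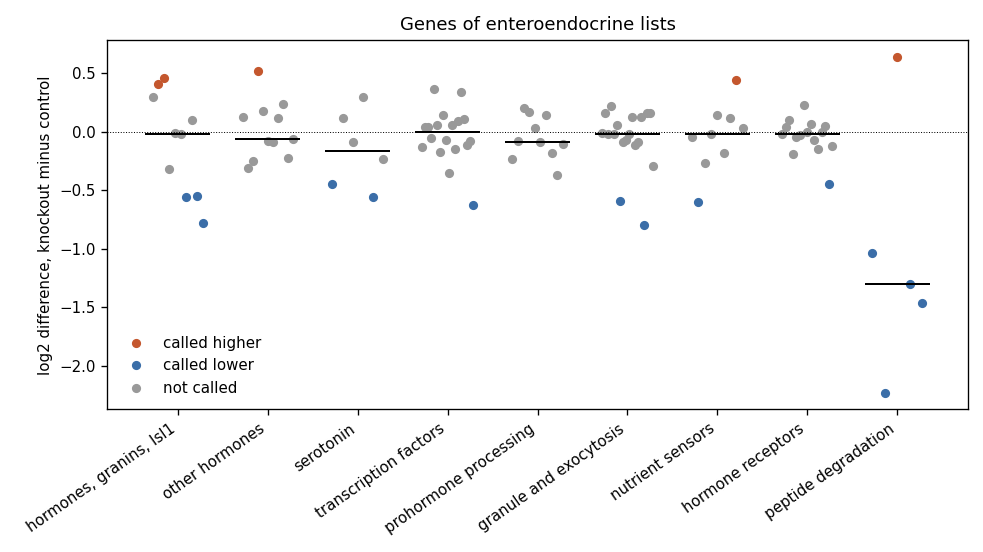
Log2 difference (knockout minus control, vertical axis) of each measured gene by its brightest probe set, for the 10 hormone, granin and Isl1 genes and the 8 lists, with the median of each column as a line. The peptide-degrading enzymes have a median of -1.30, and the medians of the other columns lie between -0.16 and -0.01.

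Of the 14 list genes called, 4 were also called with each of the arrays left out in turn, namely Mme, Dpp4, Ace and Ide, and the other 10 were lost with at least 1 array left out. Slc18a1 was lost when control replicate 1 or knockout replicate 1 was left out. Syt7, Mnx1 and Anpep were lost without either control array. Nucb2, Ddc, Vamp2, Slc5a1 and Sort1 were called only without knockout replicate 2, and Ffar4 only without knockout replicate 1. With a trended and robust prior Mme, Dpp4, Ace and Anpep were not called, and with a pseudocount of 1 Ddc was not.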

How the data were processed

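RNA of jejunal crypts was hybridised to Affymetrix arrays, 2 per group, per the labels. The authors deposited 1 intensity on a linear scale for each probe set. Their summary, scaling and background steps are not given in the sources used here, and array medians lay between 139 and 143, so no scaling was added. Gene names came from the platform annotation held by GEO, and symbols were updated by Entrez ID from RefSeq (GRCm38.p6). Of 45101 probe sets, 64 were array controls and left out, 34945 had 1 gene, 932 several and 9160 no listed gene. A gene was represented by its brightest probe set.

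Differences were fitted with limma 3.58.1 (R 4.3.3, lmFit and eBayes, no block) across all 45037 probe sets on log2(intensity + 16), with Benjamini-Hochberg adjustment and 7.34 degrees of freedom. The fit was tried on simulated data with independent noise drawn from its own variance estimates, which checks the procedure and not the calls made here. Replicates are labelled biological. Members and gene lists were chosen with earlier results of these data known. All members are named. List genes are named where called, with Neurog3, Neurod1, Pyy, Tac1, Tph1, Pcsk1 and Cpe always, and for a list with no call the 2 brightest genes. Rims2, Chat, Cckar, Glp1r, Vip, Vil1, Krt20, Olfm4 and Cdx2 were named after their values were seen. The number of arrays limits the precision. Alternatives were other pseudocounts, scalings, filters and priors, 1 probe set per gene, the dimmest probe set of each list gene, the replicate block and leaving out each array.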

Additional observations from a re-analysis of the deposited data

How the results depend on the processing

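With pseudocounts of 1 and 64, median scaling, quantile normalization, probe sets above the median only, 1 probe set per gene, a trended and robust prior and the replicate block, 2 members were called higher and 3 lower each time, the same 5 genes. Same-numbered arrays did not clearly deviate together (r = 0.0957 across probe sets, which are not independent), so the numbers were not taken as pairs. The paired fit with the replicate block changed no member call by the brightest probe set, and also called the dimmer Isl1 probe set (adjusted p = 0.0434, range over its alternatives 0.0434 to 0.391). With 1 array left out, the members called ranged from 0 to 1 higher and 0 to 4 lower, those of the 92 list genes from 1 to 2 and 3 to 13, and those of all probe sets from 2056 to 4629 and 1949 to 3908. These fits have fewer samples, and a lone array is assumed to vary like the other group. The trended and robust prior called 7 list genes lower, and the cause was not tested. With the dimmest probe set of each list gene 2 of the 92 were called higher and 8 lower, against 3 and 11 with the brightest. The filter to probe sets above the median kept 47 of the 92 list genes. Fitting 1 probe set per gene called 2442 higher and 1992 lower, with fewer probe sets tested. Directions turned for uncalled genes: Chgb with quantile normalization (0.021), and with 1 array left out Chga (range -0.15 to 0.106), Neurod1 (-0.120 to 0.018) and Cpe (-0.192 to 0.025), cause not tested. Of the uncalled members, Sst was called without knockout replicate 2 (adjusted p = 0.0481, range over its alternatives 0.0481 to 0.380).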
